A study of Mus musculus with 2 samples.

Results

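The genes described here are 8 members of the TGF-beta and activin branch of the TGF-beta superfamily: the ligand genes Tgfb1, Tgfb2, Tgfb3 and Inhba, the receptor genes Tgfbr1, Tgfbr2 and Acvr1b, and Tgfbi, a secreted matrix protein gene named for its induction by TGF-beta. They were chosen by name and not by their values, and all 8 are among the 21041 genes of the deposited single-cell matrix. The cells came from adenomas of the distal colon of 25-week-old mice with the strain label Apcmin;LSL-mTERT, which all cells share: Apcmin is an inherited truncating allele of Apc, which restrains Wnt signalling, and LSL-mTERT is a mouse Tert allele behind a stop cassette. The study's title concerns instability of chromosomes that begins at telomeres, and its labels name a G0+T and a G4+T group, each of 1 library. The authors also gave each cell a class, and the 6189 cells of one library are all CIN_high and the 7908 cells of the other all CIN_low. The names in the matrix and the sample titles conflict, so no library is called G0+T or G4+T here, and the comparison is of the CIN_high library with the CIN_low library.

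TGF-beta ligands are secreted in a latent form, held in the matrix or on cell surfaces, and become active when they are released from it. TGF-beta binds the type II receptor Tgfbr2, which activates the type I receptor Tgfbr1, while activin A, a dimer of Inhba products, signals through activin type II receptors and the type I receptor Acvr1b. Both routes end at Smad2 and Smad3, which act in the nucleus with Smad4. In the intestine this signalling is known for holding back the growth of epithelial cells, for inducing matrix genes in fibroblasts and for restraining immune cells.

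A level is the mean over cells of a gene's UMIs (unique molecules counted) per 10000 UMIs of the cell, and is given for CIN_high first. Fold differences are ratios of these means. The interval beside a fold is the exact 95% interval of the ratio of summed UMIs, which covers counting error only and can lie beside the ratio of means. Each class had 1 library, so there was no replicate and no test, and a difference between the libraries cannot be told apart from one between mice, tissue pieces or preparations. A gene counted as measured in a cell type with a UMI in at least 2% of the cells of either library, and as higher or lower in CIN_high at 1.5-fold. A type was compared where both libraries held at least 50 of its cells: epithelial (1316 and 1725 cells), endothelial (602 and 247), myeloid (2930 and 5348), pericyte (83 and 58), and T and NK cells (234 and 414). Levels are not compared between genes, because the reads were counted per gene without a correction for length or capture.

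The libraries held 51868113 and 74733715 UMIs, with medians of 6448 and 7154 UMIs per cell. Epithelial cells were deeper, with medians of 14032 and 15364 UMIs, and T and NK cells shallower, with 3442 and 3666. Every annotated type had all its defining markers detected in both libraries, for example all 4 epithelial, all 6 fibroblast and all 5 T cell markers. Other cell types' transcripts were also present in each type: the summed level of 6 neutrophil markers was 9.45 and 48.7 in endothelium, 6.33 and 17.6 in epithelium and 16.8 and 41.6 in T and NK cells. A total of 11 cell barcodes occurred in both libraries (22 cells).

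Inhba encodes the subunit of activin A. Its level was highest in myeloid cells, at 5.34 and 9.81 (9673 and 37145 UMIs), and in fibroblasts, at 0.784 and 11.9, where the CIN_low value rests on 21 cells. Pericytes followed at 1.24 and 0.723. T and NK cells were at 0.192 and 0.659, endothelial cells at 0.0912 and 0.693, epithelial cells at 0.255 and 0.377 and the few B cells at 0.0416 and 0.326. The lowest pericyte value lay above the highest of these last 4 types, whereas their own ranges over the libraries overlapped with each other, and so did those of the first 3 types in turn. Myeloid cells held 86.6% of all CIN_high and 94.9% of all CIN_low Inhba UMIs.

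Tgfb1, the ligand most studied as a brake on immune cells, had its highest level in T and NK cells, at 3.02 and 3.84, above both myeloid values of 2.89 and 2.23. Endothelial cells (1.94 and 2.24) and B cells (2.49 and 1.01) overlapped with myeloid cells in their range over the libraries. Pericytes (0.594 and 0.862) and fibroblasts (0.698 and 0.739) formed a lower pair with overlapping ranges. Epithelial cells were lowest, at 0.234 and 0.244. Because myeloid cells were the most numerous, they held 74.7% and 83.2% of all Tgfb1 UMIs.

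Tgfb2 had a stromal pattern. Its level was 0.646 in CIN_high and 2.24 in CIN_low pericytes (36 and 115 UMIs), 1.30 and 0.656 in fibroblasts (935 and 16 UMIs) and 0.321 and 0.262 in endothelial cells. Epithelial cells were at 0.0306 and 0.0750 and myeloid cells at 0.0122 and 0.00582, while neither library had a Tgfb2 UMI in B cells. Only pericytes and fibroblasts overlapped in their ranges. Fibroblasts held 81.4% of the Tgfb2 UMIs of the CIN_high library and 5.05% of those of the CIN_low library, in which they are only 21 cells, and in the CIN_low library epithelial cells held 40.4% and pericytes 36.3%.

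Tgfb3 was sparse. Pericytes stood highest at 0.384 and 0.654 (13 and 33 UMIs) and epithelial cells lowest at 0.0345 and 0.0326 (57 and 89 UMIs). The 5 types between them, myeloid cells at 0.111 and 0.0952 among them, overlapped in their ranges.

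Among the receptors, Tgfbr2, the type II receptor that binds TGF-beta, was highest in fibroblasts (6.25 and 5.25) and endothelial cells (5.29 and 3.17). T and NK cells (1.59 and 1.82), B cells (1.92 and 1.16) and pericytes (1.88 and 0.654) came next, with a gap between endothelial cells and all of these. Epithelial cells were at 0.668 and 0.579 and myeloid cells at 0.716 and 0.524, with overlapping ranges. Tgfbr1, the type I receptor, was at 1.13 and 2.38 in fibroblasts, 1.17 and 0.801 in myeloid cells and 0.986 and 0.933 in pericytes, and at 0.354 and 0.356 in epithelial cells. Acvr1b, the type I receptor for activin, was low in every type. It was at 0.185 and 0.218 in myeloid and at 0.195 and 0.187 in epithelial cells. T and NK cells had 2 and 16 UMIs of it (0.0229 and 0.104). Myeloid and epithelial cells thus shared the lowest Tgfbr2 levels, with the CIN_low pericyte value of 0.654 in the same range.

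Tgfbi was a myeloid gene in these adenomas, with levels of 10.5 and 9.32 and 92.3% and 95.3% of all Tgfbi UMIs in myeloid cells. No other type reached those levels, the nearest being the 21 CIN_low fibroblasts at 4.53, against 0.858 in CIN_high fibroblasts. Pericytes were at 1.83 and 0.542 and epithelial cells at 0.256 and 0.337. Across 22 groups of at least 50 cells (types and epithelial subtypes in each library), Tgfbi and Inhba had the highest correlation between members (Pearson r = 0.86), followed by Tgfb1 with Tgfbi (0.74) and Tgfb2 with Tgfb3 (0.72), and Tgfb1 with Acvr1b was negative (-0.50). These are descriptions over groups that share libraries.

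**Figure D1:**
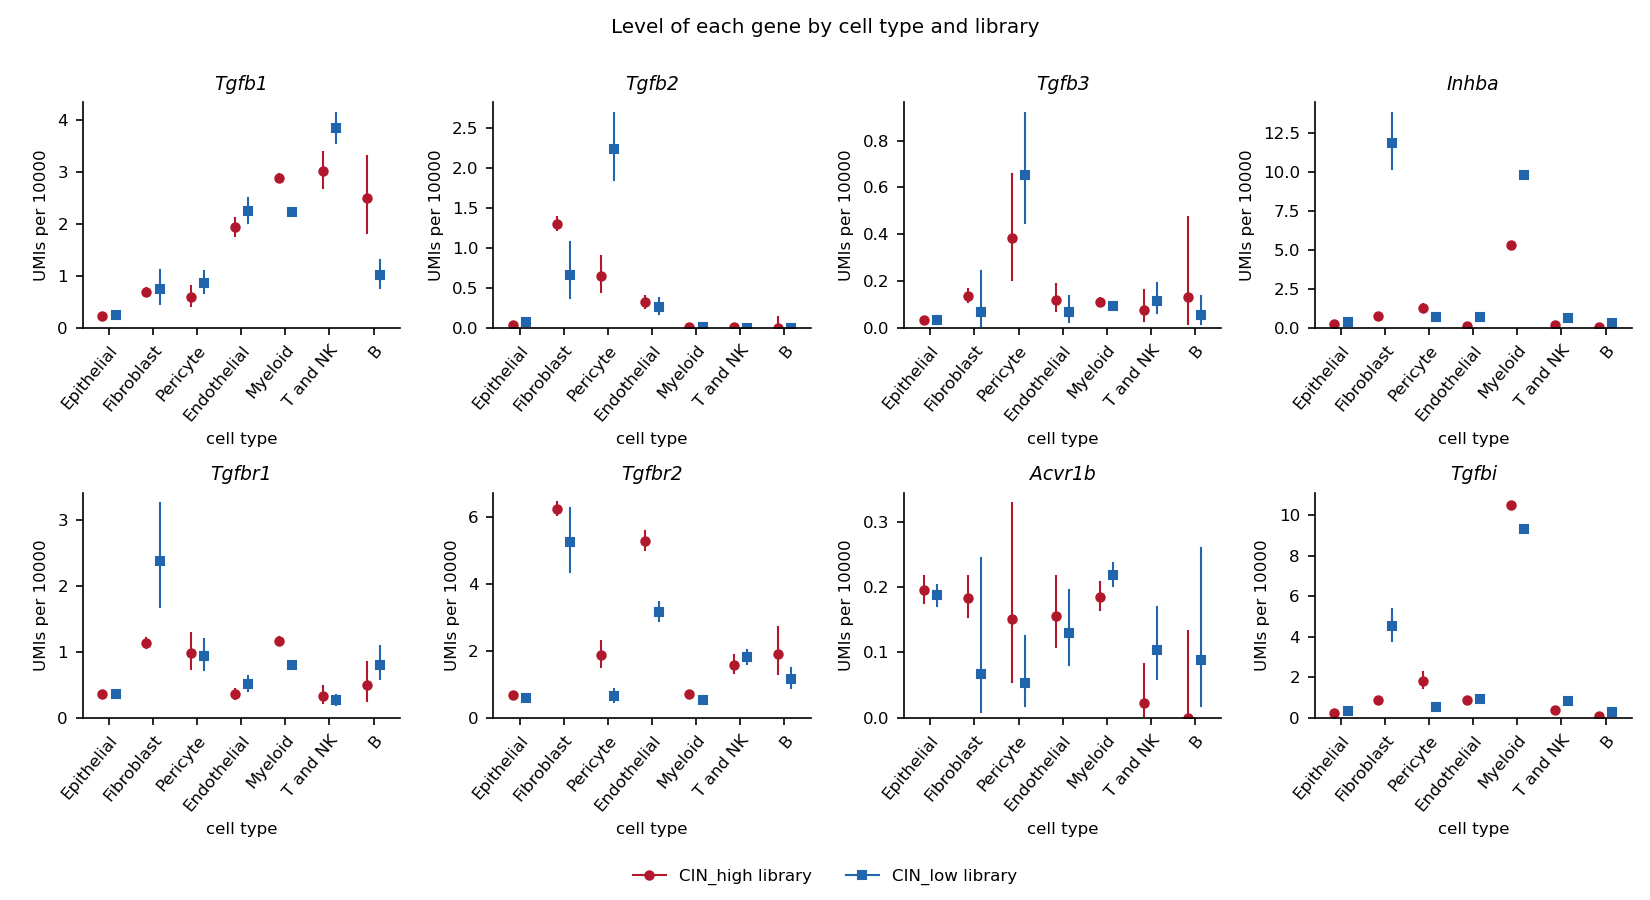
Level of each of the 8 genes (UMIs per 10000, 1 panel per gene) by annotated cell type, with red circles for the CIN_high library, blue squares for the CIN_low library and bars for 95% counting intervals. Inhba and Tgfbi stand highest in myeloid cells apart from the 21 CIN_low fibroblasts for Inhba, Tgfb2 in pericytes and fibroblasts, Tgfb3 in pericytes, and Tgfbr2 in fibroblasts and endothelial cells.

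The genes with the most similar pattern over the same 22 groups were named by Pearson r, with no test. For Tgfb1 they were Fxyd5 (0.97), Tpst2 (0.94) and Ppp1r18 (0.94), and for Tgfb2 Dennd2a (0.97), Serping1 (0.96) and Ank2 (0.94). Inhba was most like Fth1 (0.90), the heavy chain of ferritin, Dmxl2 (0.89) and Hmox1 (0.89), the haem-degrading enzyme. Tgfbi was most like Apoe, Ptgs2 and Ifi207 (0.95 each). For Tgfbr2 the genes were Slc43a3 (0.92), Plscr4 (0.89) and Slco2b1 (0.86), for Tgfbr1 Arhgap24 (0.89) and Impact (0.88), for Tgfb3 Ptgir, Peli2 and Ilk (0.91 each), and for Acvr1b Tmem131 (0.82), Tcf7l2 (0.82) and Rab1a (0.76).

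Myeloid cells were clustered without the 8 genes, the wider pathway genes and mitochondrial and ribosomal protein genes, so that the levels below did not shape the clusters. Inhba was concentrated in one of them. Cluster 1, led by Ccl24, Arg1, Il6, Il23a, Nos2 and Tnf and left unnamed by its markers, made up 10.0% of CIN_high and 13.3% of CIN_low myeloid cells (294 and 711 cells) and held 66.6% and 67.9% of the myeloid Inhba UMIs. Its Inhba level was 37.2 and 53.7, with a UMI in 254 of 294 and 669 of 711 cells. Cluster 10, led by the interferon-induced genes Ifit2, Cxcl9 and Rsad2, followed at 10.2 and 17.5. Monocyte-like cells of cluster 3 (Chil3, Vcan, Ccr2) were at 2.98 and 6.73 and macrophage-like cells of cluster 5 (Mmp12, Trem2) at 4.39 and 4.75, whereas macrophage-like cells of cluster 4 (Vcam1, Ccl8, Mrc1) were at 0.257 and 0.677. Neutrophil-like cells of cluster 2 were at 0.153 and 0.599, and dendritic-like cells of cluster 7 at 0.0568 and 0.430. The 10% of myeloid cells with the most Inhba held 88.5% and 79.2% of its UMIs, and single cells reached 134 and 191 UMIs.

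The other members were placed differently among the myeloid clusters. Tgfbi was highest in monocyte-like cluster 3 (20.9 and 23.1) and in cluster 10 (20.7 and 18.7), then in macrophage-like cluster 5 (15.0 and 16.8) and cluster 1 (13.1 and 11.3), and it reached 4.43 and 3.79 in neutrophil-like cluster 2. It was less concentrated than Inhba: the 10% of cells with the most Tgfbi held 37.1% and 40.0% of its UMIs. Tgfb1 was highest in cluster 1 (6.20 and 4.75) and monocyte-like cluster 3 (5.09 and 4.17), and low in neutrophil-like cluster 2 (0.503 and 0.377). The receptors were placed the other way round: macrophage-like cluster 4 had Tgfbr1 at 2.30 and 1.84 and Tgfbr2 at 1.37 and 1.27, and cluster 1 had Tgfbr1 at 0.721 and 0.543 and Tgfbr2 at 0.264 and 0.178. Macrophage-like cluster 4 also had the Tgfb3 level of 0.329 and 0.425, against 0.118 and 0.120 in macrophage-like cluster 5.

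Between the libraries, 1 of the 7 measured members passed the line in myeloid cells. Of all genes measured there, 11.1% passed it in either direction. Inhba was 1.84-fold lower in CIN_high (1.88 to 1.97), and below 1 in each of the 10 clusters with at least 50 cells in both libraries, with 7 of them past 1.5-fold. Of the 4675 genes measured in all 10 clusters, 1.20% had a ratio below 1 in all 10 and 0.706% were at least 1.5-fold lower in at least 7. In cluster 1, which held most of the UMIs, the difference was 1.44-fold (1.39 to 1.47). It was 2.26-fold in monocyte-like cluster 3 (2.08 to 2.43), 2.64-fold in macrophage-like cluster 4 (2.20 to 3.25) and 1.08-fold in macrophage-like cluster 5 (1.08 to 1.21). The largest was in neutrophil-like cluster 8 (Hcar2, Acod1, Ccl4), with levels of 0.213 and 2.45 (5 and 635 UMIs, 71 and 731 cells). With the clusters weighted alike in both libraries, the myeloid log2 ratio of Inhba was -0.64, against -0.88.

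Tgfbr1 (1.46-fold, 1.36 to 1.51), Tgfbr2 (1.37-fold, 1.20 to 1.38) and Tgfb1 (1.29-fold, 1.20 to 1.28) had higher levels in CIN_high myeloid cells without reaching 1.5-fold, where the median log2 ratio over all genes was 0.22. Within the 10 clusters Tgfbr1 and Tgfbr2 each had ratios above 1 in 8 and below 1 in 2, and neither passed the line upwards. Downwards, Tgfbr1 passed it in clusters 6 (18 and 38 UMIs) and 7 (19 and 45 UMIs), and Tgfbr2 in cluster 9 (1 and 10 UMIs). The ratio intervals in clusters 6 and 9 were 0.317 to 1.06 and 0.00508 to 1.55. Of 41 measured pathway genes from a list by role, 11 were higher and 4 lower, beside 7.83% and 3.30% of all genes. Among the higher were Col1a2 (0.211 and 0.00484), Dcn (0.404 and 0.0213) and Col1a1 (0.154 and 0.00851), which are fibroblast genes. The summed level of 6 fibroblast markers in myeloid cells was 1.33 and 0.0572. Myeloid cluster 11 had all 6 of these markers, and it held 68 CIN_high cells and 1 CIN_low cell. The part of this cluster and of these markers in the count of higher genes was not tested. Itgae, the integrin chain of tissue-resident cells, was at 0.188 and 0.0899 (2.09-fold higher, 2.09 to 2.69). Lower were Fst, the activin-binding antagonist follistatin, at 0.0190 and 0.0703 (3.70-fold), the endoglin partner receptor Acvrl1 at 0.442 and 0.709 (1.60-fold) and Snai1, a target transcription factor, at 0.106 and 0.166 (1.56-fold). Follistatin and Inhba were thus both lower in CIN_high myeloid cells, where Fst had only 32 and 211 UMIs, in 0.819% and 2.39% of cells. Of 12 measured Smads and regulators none passed the line, beside 11.1% of all genes in either direction.

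**Figure D2:**
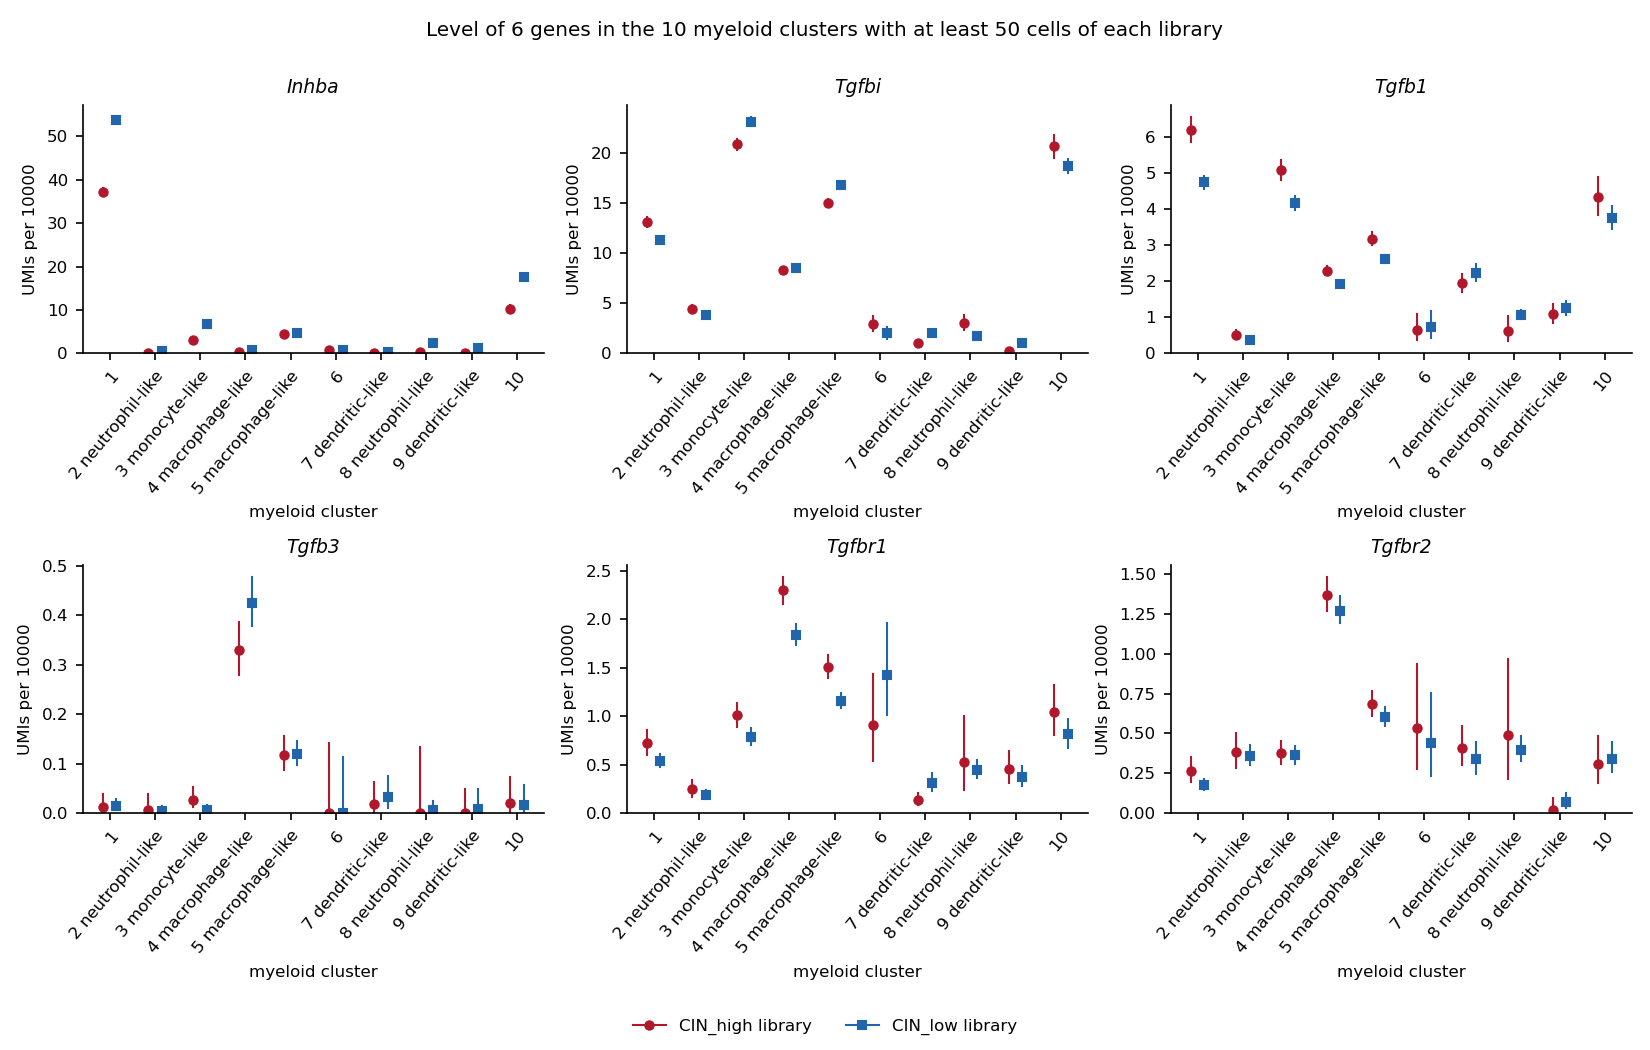
Levels (UMIs per 10000, 1 panel per gene) in the 10 myeloid clusters with at least 50 cells in each library, with red circles for CIN_high, blue squares for CIN_low and bars for 95% counting intervals. Inhba peaks in cluster 1 at 37.2 and 53.7 and the CIN_low square lies above the CIN_high circle in every cluster, while Tgfbr1 and Tgfbr2 peak in macrophage-like cluster 4.

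The 6 epithelial subtypes called large here are all but the complement-positive, S100a8/S100a9-positive and Igfbp-positive ones. Size alone does not set them apart, since the CIN_low library had 85 complement-positive and 48 secretory cells. In complement-positive cells, given below, Inhba was higher than in any of the large subtypes, at 1.85 and 4.36. Among the 6 large epithelial subtypes, Tgfb2 and Inhba were highest in one that the authors named for p57, the cell cycle inhibitor encoded by Cdkn1c. The 77 and 211 cells of this subtype had Cdkn1c at 4.91 and 4.78, against 0.356 and 0.655 in the 5 other large subtypes together. Their Tgfb2 level was 0.319 and 0.585 (18 and 117 UMIs), against 0.00600 and 0.00405 (12 and 10 UMIs in 1167 and 1393 cells), which is 53.1-fold and 144-fold higher. It came from 9 and 41 cells with a UMI. Inhba was at 1.02 and 0.427 (92 and 100 UMIs in 20 and 40 cells with a UMI), against 0.145 and 0.128, which is 7.01-fold and 3.33-fold higher. The subtype was 5.85% and 12.2% of epithelial cells and held 36.7% and 91.4% of the epithelial Tgfb2 UMIs. No p57 cell was called a doublet in either library. The summed levels of other cell types' markers in them were 0.0932 and 0.0537 for fibroblasts, 0.102 and 0.0606 for pericytes and 0.966 and 1.60 for macrophages. In Cancer_cell_1 these were 0.0852 and 0.0282, 0.186 and 0.293, and 1.29 and 1.32. Their part in the levels was not tested. Since the subtype comes from clustering by the authors, these folds are descriptions.

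Of the receptor members, Tgfbr2 was lower in p57 cells. It was at 0.308 and 0.299, against 0.655 and 0.625 in the other 5 subtypes (2.13-fold and 2.09-fold lower), and no other large subtype overlapped with p57 cells in its range. Tgfb1 was at 0.115 and 0.0940, against 0.197 and 0.190 (1.72-fold and 2.02-fold lower). Tgfbr1 (0.314 and 0.381 against 0.339 and 0.340) and Acvr1b (0.212 and 0.152 against 0.195 and 0.195) did not differ by 1.5-fold. The fixed pathway list had 46 genes measured in both libraries, of which 10 were higher in p57 cells by at least 1.5-fold in both libraries and 8 lower. Over all 13004 genes measured in this way, 13.7% were higher and 12.0% lower in both. The higher ligands were Tgfb2, Inhba, Gdf11 (10.5-fold and 6.85-fold), Inhbb (4.57-fold and 2.97-fold) and Tgfb3 (1.72-fold and 2.55-fold). Tgfb3 had 4 and 14 UMIs in p57 cells, with intervals of 0.530 to 5.56 and 1.22 to 4.36. Its levels there, 0.0541 and 0.0612, overlapped in range with Cancer_cell_1 (0.0570 and 0.0322). Tgfbr3, the co-receptor betaglycan that presents TGF-beta 2, was 206-fold and 113-fold higher. These folds rest on few UMIs, 11 and 59 in p57 cells against 3 and 7 in the other 5 subtypes. The inhibitory Smad7 was 1.60-fold and 1.90-fold higher. The other higher genes were Ltbp1 (3.34-fold and 1.53-fold) and Ltbp3 (1.74-fold and 6.01-fold), which hold latent TGF-beta, and the target Timp1 (1.87-fold and 1.63-fold). The lower genes were Tgfb1, Tgfbr2, Itgb6 (6.07-fold and 4.27-fold), a chain of a TGF-beta-activating integrin, and Pmepa1 (3.60-fold and 3.09-fold), a target that dampens the pathway. Smad3 (3.02-fold and 1.63-fold) and Fn1 (2.33-fold and 2.81-fold) were lower too. So were Ltbp4 (2.93-fold and 15.0-fold) and Acta2 (1.74-fold and 5.02-fold), which had only 7 and 5 and 3 and 7 UMIs in p57 cells.

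Inhba and Tgfb2 are the 2 members higher in p57 cells by the widest margin, so the 250 bases before their RefSeq start sites (GRCm38.p6) are shown, on the strand of the gene, with TATA-box letters TATAAA, E-box letters CACGTG and the half-site letters CGTCA in capitals where present. Inhba lies at chr13:16011851-16031621 on the plus strand and Tgfb2 at chr1:186622792-186705989 on the minus strand (mm10, GENCODE), both as protein-coding genes, and both windows end at the base before the gene's annotated start.
Inhba, chr13:16011601-16011850, plus strand: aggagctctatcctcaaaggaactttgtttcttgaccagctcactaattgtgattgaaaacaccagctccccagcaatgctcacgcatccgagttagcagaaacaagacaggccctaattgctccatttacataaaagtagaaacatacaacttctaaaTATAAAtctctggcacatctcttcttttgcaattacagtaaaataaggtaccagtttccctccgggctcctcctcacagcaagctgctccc
Tgfb2, chr1:186705990-186706239, minus strand: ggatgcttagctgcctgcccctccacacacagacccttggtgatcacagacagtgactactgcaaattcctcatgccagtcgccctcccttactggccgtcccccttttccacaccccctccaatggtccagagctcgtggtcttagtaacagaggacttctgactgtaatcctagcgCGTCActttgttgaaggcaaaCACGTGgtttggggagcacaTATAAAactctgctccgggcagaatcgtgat
The TATAAA letters lie 91 to 86 bases before the start of Inhba and 31 to 26 bases before that of Tgfb2. On either strand TATAAA occurs in 12.4%, CACGTG in 6.02% and CGTCA in 17.8% of 32851 promoter windows of the same length. Among the windows of the other 5 members with an entry TATAAA had no match, and the GC-box letters GGGCGG, which occur in 32.7% of windows, matched 5 times at Tgfb1, 4 times at Acvr1b, 2 times at Tgfbr1 and 1 time at Tgfbi. Acvr1b also had 1 CACGTG. The RefSeq starts of Tgfbr2, Acvr1b, Tgfbi and a second Tgfbr1 entry differ from the annotated gene starts. The bases after the Tgfbr2 start were found in no GENCODE transcript of that gene. These windows are therefore less certain than those of Inhba and Tgfb2. The full CRE letters TGACGTCA, which contain CGTCA and occur in 1.55% of windows, had no match in these windows. The AP-1 letters TGACTCA (4.46%) had none either. The palindrome of Smad binding, GTCTAGAC (0.167%), had none. A match of letters is a description of the window and shows no binding.

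Across the other large subtypes, Tgfbr2 was highest in secretory cells (0.875 and 0.659) and Stem_cell_1 (0.863 and 0.759). Cancer_cell_1 (0.555 and 0.641), enterocytes (0.594 and 0.450) and proliferating cells (0.456 and 0.416) came below Stem_cell_1 in both libraries. Inhba was at 0.246 and 0.175 in Cancer_cell_1, and at 0.0602 and 0.0810 in Stem_cell_1, 0.0726 and 0.0669 in proliferating cells and 0.0438 and 0.0599 in enterocytes. Tgfbr1 was lowest in enterocytes, at 0.142 and 0.140, against 0.379 and 0.362 in Cancer_cell_1. Acvr1b was at 0.302 and 0.202 in enterocytes and at 0.213 and 0.214 in Stem_cell_1. Tgfb1 was at 0.349 and 0.521 in secretory cells and 0.278 and 0.220 in Stem_cell_1.

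A pair of small subtypes held much of the remaining epithelial signal and had many called doublets. Complement-positive stem cells (39 and 85 cells, 76.9% and 75.3% called doublets) had Tgfbi at 5.30 and 4.41 and Inhba at 1.85 and 4.36, with a summed macrophage marker level of 88.3 and 63.5. They held 63.8% and 70.2% of the epithelial Tgfbi UMIs and 33.6% and 66.2% of the epithelial Inhba UMIs. The 25 Igfbp-positive cells, all CIN_high and 52.0% called doublets, had Tgfb2 at 0.324 (17 UMIs, 34.7% of the CIN_high epithelial Tgfb2 UMIs) and Tgfbr2 at 2.21, with a summed fibroblast marker level of 25.0.

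**Figure D3:**
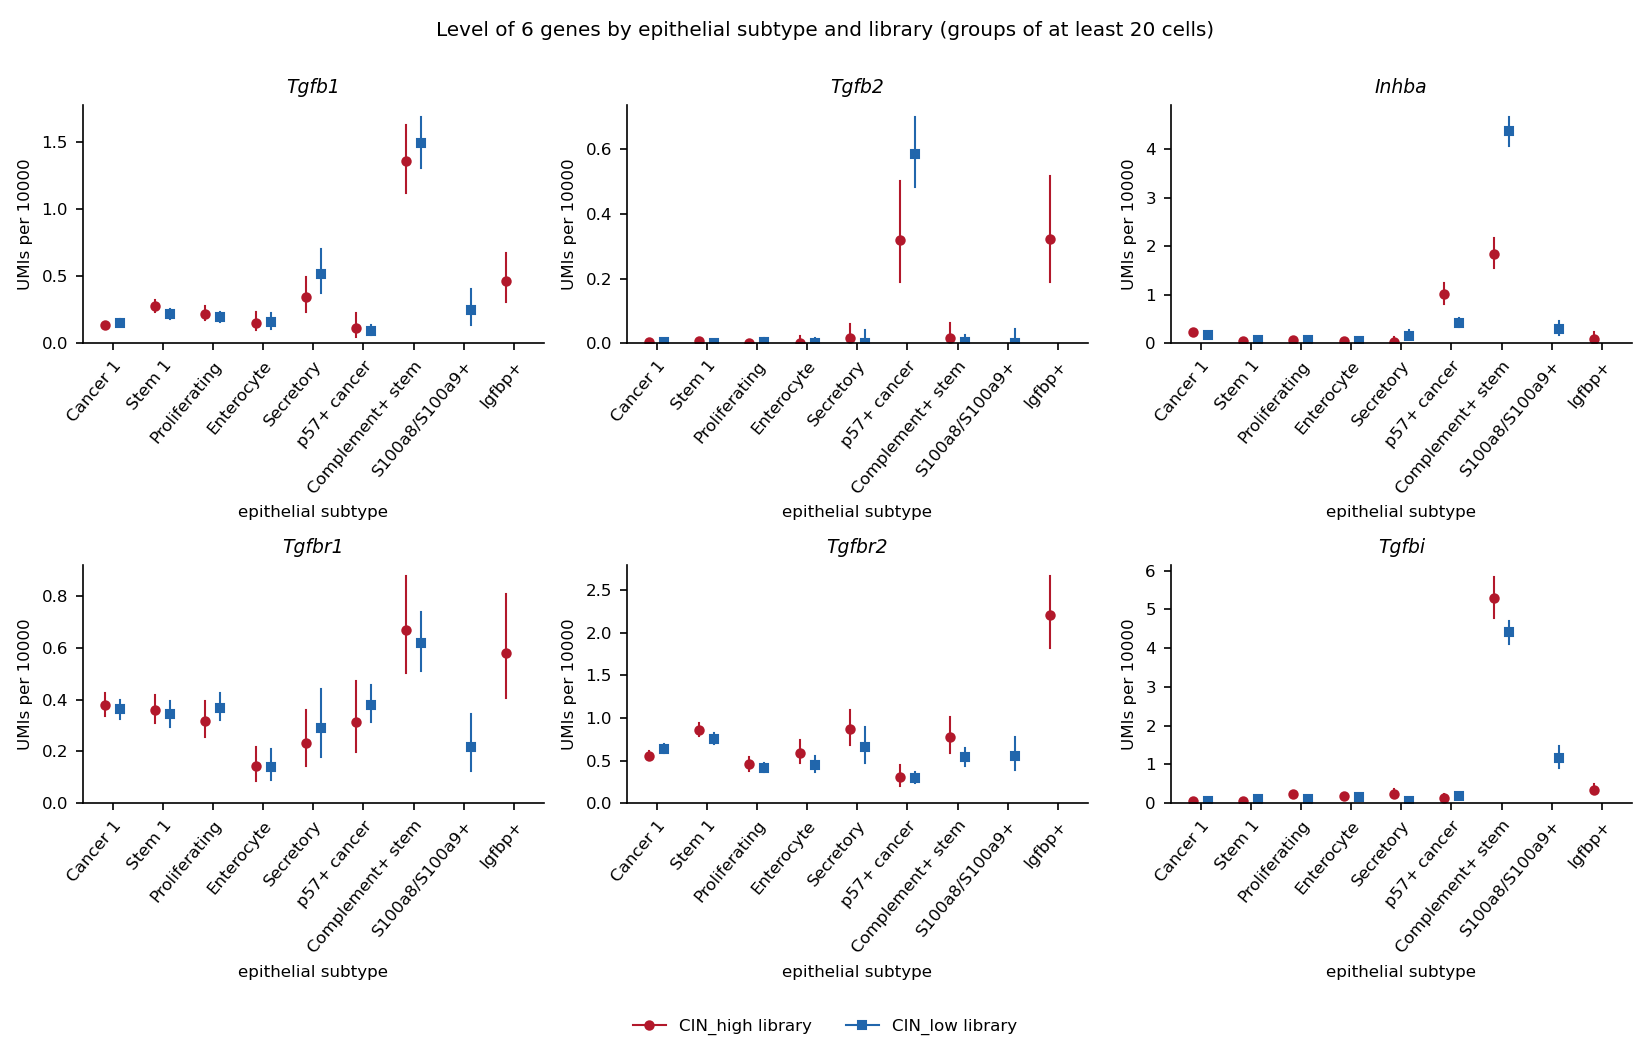
Levels of 6 genes (UMIs per 10000, 1 panel per gene) in the epithelial subtypes with at least 20 cells of the library, with red circles for CIN_high, blue squares for CIN_low and bars for 95% counting intervals. Among the 6 large subtypes p57 cells have the highest Tgfb2 (0.319 and 0.585) and Inhba (1.02 and 0.427) and the lowest Tgfbr2 (0.308 and 0.299), and the complement-positive cells stand apart for Tgfbi.

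Between the libraries, 1 of the 8 members passed the line in epithelial cells as a whole, and 11.9% of all genes measured there did so. Tgfb2 was 2.45-fold lower in CIN_high (1.26 to 2.50), at 0.0306 and 0.0750. With subtypes weighted alike the log2 ratio was -0.71 in place of -1.29, and without the 3 small subtypes it was -1.67. Inhba was 1.48-fold lower (1.76 to 2.19) and did not reach the line, and its log2 ratio turned from -0.56 to 0.25 without the 3 small subtypes and to 0.35 without called doublets. Tgfb1, Tgfb3, Tgfbr1 and Acvr1b differed by at most 1.06-fold between the libraries. Of the 10 measured receptors of the pathway list none passed the line, and of 13 Smads and regulators none did. Beside the 11.9% of all genes, such small lists are not set apart by these counts.

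Within p57 cells 2 of the 8 measured members passed the line in opposite directions, beside 32.3% of all genes measured. Inhba was 2.39-fold higher in CIN_high (2.39 to 4.30) and Tgfb2 1.83-fold lower (1.13 to 3.26). One CIN_high cell held 27 of the 92 Inhba UMIs, and without the cell of the highest level in each library the levels were 0.810 and 0.368. For Tgfb2 the levels without those cells were 0.216 and 0.531. In Cancer_cell_1 (14.5% of genes past the line) 1 of 7 members passed, Tgfb3, at 0.0570 and 0.0322 (1.77-fold higher, 0.931 to 2.46). Enterocytes had none of 6, beside 38.3% of genes. In proliferating cells (24.6% of genes) Tgfbi was at 0.246 and 0.114 (2.16-fold higher, 1.24 to 2.56), and 0.158 and 0.0995 without the cell of the highest level. Tgfb3 also passed there, with 4 and 5 UMIs (1.72-fold higher, 0.321 to 7.51). In Stem_cell_1 (21.8% of genes) Tgfbi was 2.14-fold lower, at 0.0506 and 0.108 (1.93 to 5.21), where 1 CIN_low cell held 34 of 76 UMIs, and Tgfb3 2.43-fold lower with 3 and 11 UMIs (0.914 to 19.3). The summed macrophage marker level was 4.71 and 1.95 in proliferating cells and 1.06 and 2.04 in Stem_cell_1, and so moved the same way as Tgfbi. Its part in the result was not tested, nor was the difference between these subtypes.

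Of the 53 measured pathway genes in epithelial cells 5 were higher and 4 lower in CIN_high, beside 4.16% and 7.70% of all genes. The lower ones were all but 1 ligands: Tgfb2, Inhbb (0.0599 and 0.133, 2.22-fold, 1.85 to 2.92) and Gdf11 (0.190 and 0.310, 1.63-fold, 1.41 to 1.83). Within subtypes, Inhbb was also lower in Cancer_cell_1 (0.0879 and 0.178), proliferating cells and Stem_cell_1. Gdf11 was lower in Stem_cell_1 (0.0143 and 0.0416) but higher in proliferating cells, each past 1.5-fold. In p57 cells neither passed the line, and Gdf11 was at 1.23 and 1.24. All 3 ligands stood higher in p57 cells than in the other 5 large subtypes. The p57 share of the epithelium was 5.85% in the CIN_high library, against 12.2% in CIN_low. The part of this share in the Inhbb and Gdf11 differences was not tested. The higher ones included Dcn (0.279 and 0.00995), Col1a2 (0.0685 and 0.00290) and Col1a1 (0.0447 and 0.00352), and the summed fibroblast marker level in epithelial cells was 0.549 and 0.0300. Its part in the result was not tested. The latent TGF-beta binding proteins Ltbp3 (0.0563 and 0.0331, 1.70-fold) and Ltbp4 (0.215 and 0.138, 1.56-fold) were the other 2.

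Endothelial cells had 3 of the 8 members past the line, beside 32.4% of all genes measured. Tgfbr2 was 1.67-fold higher in CIN_high (1.43 to 1.76), at 5.29 and 3.17 (1346 and 470 UMIs). The endothelial clusters of the libraries differed in number, however. Cluster 5 (Cd36, Rbp7; 27.7% and 4.86% of endothelial cells) had Tgfbr2 at 7.11 and 11.1, cluster 2 (Gja5, Sema3g) at 8.32 and 7.93, lymphatic-like cluster 4 (21.6% and 8.50%) at 5.16 and 4.18, cluster 8 (Aplnr, Prnd; 9.97% and 34.8%) at 2.09 and 2.33 and cluster 9 (Csf3, Ubd, Cxcl9; 4.65% and 18.6%) at 1.54 and 0.580. The clusters with low Tgfbr2 were the more frequent ones in the CIN_low library. With the clusters weighted alike in both libraries, the log2 ratio of Tgfbr2 was -0.10, against 0.74 as observed. The sign thus turned, but to a value close to no difference. Cluster 5, with the highest CIN_low level, held only 12 CIN_low cells, beside 167 CIN_high cells.

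Inhba was 7.60-fold lower in CIN_high endothelial cells (5.26 to 11.4), at 0.0912 and 0.693. Clusters with at least 4 markers of another cell type (17 and 24 cells) held 62.9% and 95.3% of these Inhba UMIs, and without them the levels were 0.0585 and 0.0797. Tgfb3 was 1.80-fold higher with 18 and 7 UMIs (0.567 to 4.03). It lay mostly in lymphatic-like cluster 4 (17 and 4 UMIs, 0.541 and 0.407), which also had the highest endothelial Tgfb2 level, at 1.00 and 1.14. Tgfb2 was at 0.654 and 0.660 in cluster 2.

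Of 49 measured pathway genes in endothelial cells 11 were higher and 12 lower, beside 12.8% and 19.6% of all genes. Higher were the smooth muscle genes Tagln (0.194 and 0.00809) and Acta2 (0.244 and 0.0204), where the summed level of 5 pericyte markers was 1.12 and 0.133 and its part was not tested. Also higher were Ltbp1 (0.278 and 0.0683, 4.08-fold), Tgfbr3 (0.973 and 0.469, 2.07-fold), and the transcription factor genes Snai1 (0.351 and 0.169, 2.08-fold) and Snai2 (0.117 and 0.0387, 3.02-fold). Lower were Itgav (0.585 and 1.48, 2.52-fold) and Thbs1 (5.42 and 9.65, 1.78-fold), whose products release TGF-beta from its latent form. Ccn2 (0.350 and 0.703, 2.01-fold), Tgif1 (0.543 and 1.04, 1.91-fold) and Dcn (0.295 and 0.665, 2.25-fold) were lower as well. The summed neutrophil marker level in endothelial cells was 9.45 and 48.7, and the cluster shares differed as given above. The part of either in these pathway differences was not tested.

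Pericytes had 6 of the 8 members past the line, beside 46.8% of all genes measured, and these counts rest on few cells (83 and 58). Tgfb2 was 3.47-fold lower in CIN_high (1.94 to 4.25), at 0.646 and 2.24, and Tgfb3 1.70-fold lower (1.15 to 4.66). Higher were Tgfbi (1.83 and 0.542, 3.38-fold, 1.40 to 2.98), Tgfbr2 (1.88 and 0.654, 2.88-fold, 1.69 to 3.52), Acvr1b with 6 and 5 UMIs (2.81-fold, 0.344 to 5.60) and Inhba (1.24 and 0.723, 1.72-fold, 1.23 to 2.59). For Inhba 1 CIN_high cell held 24 of 79 UMIs, and the levels without the top cell of each library were 0.937 and 0.617. With back-transformed log means the log2 ratio of Inhba turned from 0.78 to -0.05. The share of pericytes with an Inhba UMI was 24.1% and 36.2%, and 13.3% and 12.1% at an equal depth of 2000 UMIs (79 and 58 cells), so the direction in pericytes was not stable. Without those cells Tgfb3 was at 0.287 and 0.423 and Tgfb2 at 0.558 and 2.01.

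The makeup of the pericyte class also differed between the libraries: the summed level of 4 smooth muscle markers was 41.2 and 12.8, that of 5 pericyte markers 108 and 153 and that of 6 fibroblast markers 39.7 and 69.6. The part of these in the member differences was not tested. Of 56 measured pathway genes 18 were higher and 13 lower, beside 24.7% and 22.0% of all genes. Tgfbr3 was at 5.99 and 0.182 (279 and 6 UMIs, 32.9-fold higher, 23.8 to 144), the contractile genes Tagln at 36.2 and 10.2 and Acta2 at 43.0 and 17.8, and Smad4 at 1.13 and 0.673 (1.68-fold higher). Lower were Eng, a co-receptor of vessels, at 0.855 and 2.07 (2.42-fold), Lrrc32, which tethers latent TGF-beta to the cell surface, at 0.519 and 1.34 (2.59-fold), Col1a1 at 4.99 and 13.5 (2.70-fold) and the inhibitory Smad6 at 0.213 and 0.478 (2.25-fold).

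In T and NK cells 4 of the 7 measured members passed the line, all lower in CIN_high, beside 16.8% of all genes lower and 30.2% in either direction. Inhba was at 0.192 and 0.659 (3.44-fold lower, 4.54 to 11.6) and Tgfbi at 0.377 and 0.821 (2.18-fold lower, 2.32 to 4.08). Clusters with markers of another type (6 and 37 cells) held 71.4% and 97.2% of those Inhba UMIs and 80.3% and 94.7% of the Tgfbi UMIs. Without them Inhba was at 0.136 and 0.0800 and Tgfbi at 0.167 and 0.183. Acvr1b, with 2 and 16 UMIs (4.55-fold lower, 0.977 to 37.3), and Tgfb3, with 6 and 15 UMIs (1.57-fold lower, 0.476 to 4.08), were too sparse for a direction at this depth. Tgfb1, the member with the highest level in these cells relative to other types, was 1.27-fold lower (0.996 to 1.31). In NK-like cluster 4 it was at 3.81 and 6.04 (1.58-fold lower, 1.13 to 1.89), in a comparison in which 45.1% of genes passed the line, and in regulatory T-like cluster 3 at 2.30 and 2.87.

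Of 33 measured pathway genes in T and NK cells 5 were higher, beside 13.4% of all genes, and 8 lower, beside 16.8%. Itgb8, a chain of an integrin that activates TGF-beta, was at 0.304 and 0.956 (3.14-fold lower, 1.95 to 4.47). Lrrc32 was at 0.0483 and 0.199 (5 and 33 UMIs, 4.11-fold lower, 1.33 to 11.2). Fn1 (0.421 and 1.42) and Thbs1 (0.744 and 1.78), which are high in myeloid cells, were also lower. The summed macrophage marker level was 5.05 and 9.52, and its part was not tested. The mix of clusters differed too: regulatory T-like cluster 3 had 33 of 234 and 89 of 414 cells, and NK-like cluster 4 had 70 and 56. The part of this mix was not tested either. Higher were Bambi, a decoy receptor, at 0.535 and 0.255 (0.929 to 2.15 for the ratio), and Smad3 at 0.446 and 0.254 (1.75-fold).

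**Figure D4:**
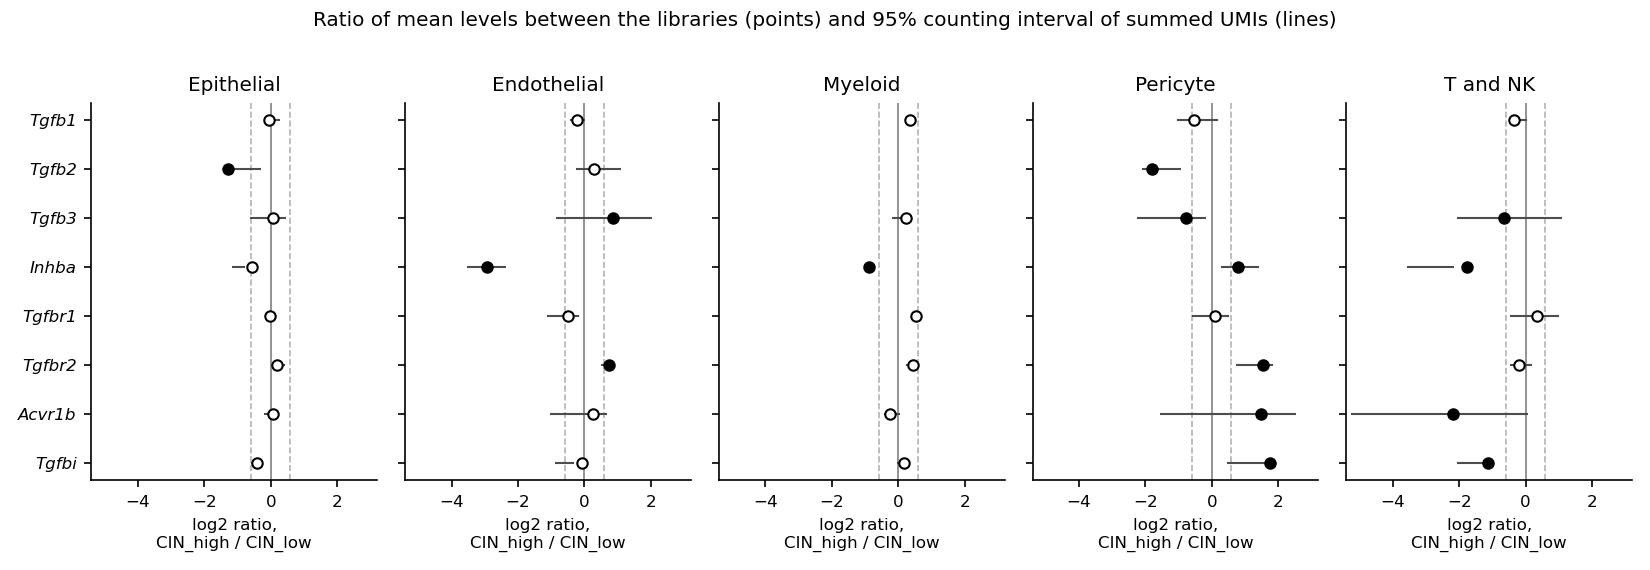
Log2 ratio of the level in CIN_high over CIN_low for each member in the 5 compared types, where filled points are past 1.5-fold, dashed lines mark 1.5-fold and horizontal lines are 95% counting intervals of the ratio of summed UMIs. Inhba is below 0 in endothelial cells (-2.93), T and NK cells (-1.78), myeloid cells (-0.88) and epithelial cells (-0.56) and above 0 in pericytes (0.78).

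Fibroblasts were not compared between the libraries, since the CIN_low library held 21, 13 of them in 1 cluster. In the 966 CIN_high fibroblasts Tgfbr2 was highest in telocyte-like cluster 3 (92 cells), at 16.6, and every other cluster with at least 10 cells was between 3.50 and 7.32. Telocytes are thin fibroblasts that line the epithelium, and this cluster had all 5 of their markers (Foxl1, Wnt5a, Bmp5, Bmp7 and Sox6). The second telocyte-like cluster, cluster 5 (110 cells), was at 7.32, with Tgfbi at 2.60, and lamina propria-like cluster 2 (122 cells) was at 6.04 with Tgfb3 at 0.326.

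Fibroblast Inhba was concentrated in cluster 7, led by Mmp13, Cemip, Mmp10 and Il11, which had 20 CIN_high and 13 CIN_low cells and levels of 11.7 and 17.9. It held 51.9% of the CIN_high and 93.1% of the CIN_low fibroblast Inhba UMIs. In CIN_high a single cell held 327 of its 475 UMIs, and without the cell of the highest level in each library the levels were 6.45 and 12.7. Telocyte-like clusters 3 and 5 were at 2.12 and 1.19 in CIN_high, and cluster 6 (26 cells), which also had macrophage and neutrophil markers, at 2.49. The same cluster 7 had Tgfbi at 2.84 and 5.22 and Tgfb2 at 1.36 and 0.591. Tgfb2 in the other CIN_high fibroblast clusters ran from 0.704 to 1.65. The Inhba gap between the libraries over all fibroblasts, 0.784 and 11.9, thus set 966 cells of many clusters beside 21 cells that were mostly of cluster 7.

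**Figure D5:**
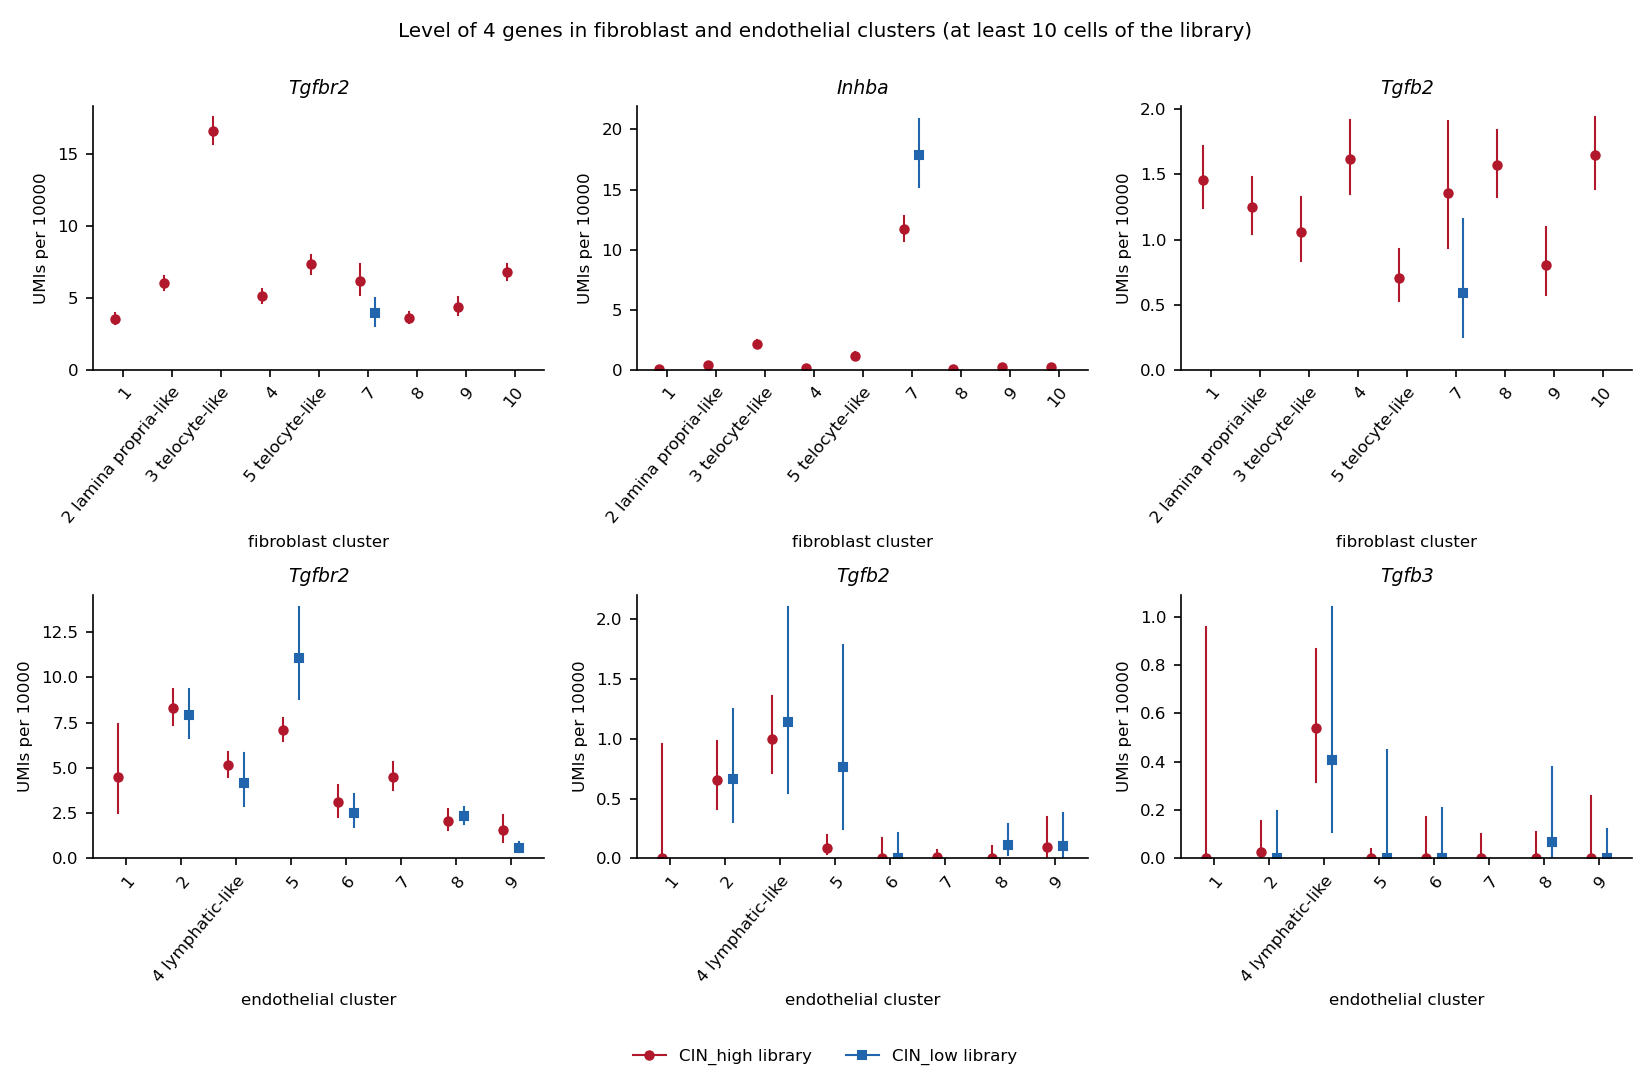
Levels (UMIs per 10000) of Tgfbr2, Inhba and Tgfb2 in fibroblast clusters and of Tgfbr2, Tgfb2 and Tgfb3 in endothelial clusters with at least 10 cells of the library, leaving out clusters with at least 4 markers of another cell type; red circles are CIN_high, blue squares CIN_low and bars 95% counting intervals. Among fibroblasts Tgfbr2 is highest in telocyte-like cluster 3 (16.6), Inhba in cluster 7 (11.7 and 17.9), and among endothelial cells Tgfb2 and Tgfb3 are highest in lymphatic-like endothelial cluster 4 (1.00 and 1.14 for Tgfb2).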

How the data were processed

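Single cells of distal colon adenomas, dissociated with collagenase A and trypsin per the labels' protocols, were profiled on the 10x Genomics platform, with Cell Ranger 2.1.1, Seurat and mm10 per the submitters' processing notes. The authors deposited a matrix of 14097 cells on the natural log scale, ln(1 + UMIs per 10000), from which UMI counts were recovered as whole numbers in 100% of values (tolerance 0.01), and their class, cell type and epithelial subtype per cell. No label names the filters that were applied to cells or genes before deposit. The prefix of all cell names fits the first sample title alone, while the suffixes fit both titles.

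Levels, ratios and exact intervals were computed as the report states (Clopper-Pearson for shares, Poisson for UMI sums, conditional binomial for ratios; a side at 0 UMIs is set to 3). The values in the files allowed a mean of linear values, with no count model. The members, the pathway list (60 of 63 genes found; Mstn, Nodal and Lefty2 are not listed) and the alternatives were chosen with earlier results of these data known. Named were all members, and per type up to 6 pathway genes in each direction past 1.5-fold with at least 30 UMIs, and up to 3 similar genes per member, by Pearson correlation of log2(level + 0.1) among genes reaching a level of 0.5; a few named genes are not reported here. The p57 cells' pathway genes and the top-cell values were chosen after their values were seen.

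Scrublet (Scanpy 1.11.5, expected rate 6%) marked doublets (142 cells, 2.29%, and 249 cells, 3.15%), which were kept. Myeloid, fibroblast, endothelial and T and NK cells were clustered per type on 2000 variable genes, 25 components and 15 neighbours at resolution 1.0 (igraph 0.11.9), and a cluster was called "-like" only with at least 3 listed markers. The software was SciPy 1.17.1, pandas 2.3.3, numpy 2.4.6 and matplotlib 3.10.9 under Python 3.11.15, and the functions were tested on simulated data. Promoters came from RefSeq (GRCm38.p6; 7 of 8 members had an entry, Tgfb3 had none) and gene positions from GENCODE on mm10. Tgfb1 lies at chr7:25687002-25705077, Tgfb3 at chr12:86056745-86079041, Tgfbr1 at chr4:47353222-47414931, Tgfbr2 at chr9:116084293-116175360, Acvr1b at chr15:101174067-101213684 and Tgfbi at chr13:56609523-56639562. No protein sequences were used here.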

Additional observations from a re-analysis of the deposited data

Results flagged for a closer look

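The log2 ratio of Inhba differed in sign between cell types as observed. This log2 ratio of CIN_high over CIN_low was 0.78 in pericytes, against -2.93 in endothelial cells, -0.88 in myeloid cells and -1.78 in T and NK cells, and the difference between the types was not tested. The pericyte value turned to -0.05 with back-transformed log means, and the T and NK value to 0.87 with the cluster mix standardised and 0.77 without clusters with markers of another cell type. The contrast of directions is therefore not stable. Most Inhba UMIs of endothelial and of T and NK cells lay in clusters with markers of another cell type, as given with those results.

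Tgfbi had log2 ratios of 1.76 in pericytes but -1.12 in T and NK cells. Within the epithelium they were 1.11 in proliferating and -1.10 in Stem_cell_1 cells. Summed macrophage markers moved the same way there (4.71 and 1.95 in proliferating cells, 1.06 and 2.04 in Stem_cell_1). Neither difference, nor the part of these markers, was tested.

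Cells of no known type, left out of every comparison, had a Tgfb2 level of 4.00 UMIs per 10000 in the CIN_high library (38 UMIs in 18 cells, 95% counting interval 2.83 to 5.49) and 3.34 without the cell of the highest level. This was above the pericyte and fibroblast levels of 0.646 and 1.30 in that library. Genes that led these cells included Apod, Cdh19, Kcna2, Sostdc1 and Lgi4, of which Apod was at 132 against 0.118 in the other cells. The 2 such CIN_low cells were both called doublets.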

How the results depend on the processing

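No paired analysis was possible because each class is 1 library. Of the member ratios recomputed under the alternatives, 234 moved by less than their counting interval, 49 moved by more and 5 that were past 1.5-fold turned direction (log2, CIN_high over CIN_low). Ratios short of the line also changed sign, for example epithelial Inhba (-0.56 to 0.25 without the 3 small subtypes and 0.35 without doublets) and endothelial Tgfbi (-0.06 to 0.88 without clusters with markers of another type). Tgfbr2 in endothelial cells went from 0.74 to -0.10 with the cluster mix standardised, Inhba in pericytes from 0.78 to -0.05 with back-transformed log means, and Tgfb3 in T and NK cells from -0.65 to 0.59 without cells under 2000 UMIs. Inhba in T and NK cells went from -1.78 to 0.87 with the cluster mix standardised and to 0.77 without clusters with markers of another type. The cause was not tested. Alternatives chosen after seeing the data were those on the cluster mix, on clusters with markers of another type and on the 3 small epithelial subtypes.

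The counts in this paragraph are given without the share of all genes under the same alternative. They show how far a count depends on the settings, and are not set against a background. The number of members past the line in epithelial cells, 1, became 2 with summed UMIs, 2 without cells under 2000 UMIs and 0 at a detection minimum of 5%. At a 2-fold line it fell from 3 to 1 in endothelial and from 1 to 0 in myeloid cells, and with no detection minimum the myeloid number was 2. In T and NK cells it went from 4 to 1 at the 5% minimum. Pathway genes lower in epithelial cells, 4, became 7 without doublets, 2 at 2-fold and 8 without the 3 small subtypes, and those higher, 5, became 3 at the 5% minimum and 3 at 2-fold. In endothelial cells the 11 higher became 5 at the 5% minimum and 7 at 2-fold, and the 12 lower 7 at 2-fold. In myeloid cells the 11 higher became 7 with summed UMIs, without cells under 2000 UMIs, relative to the median of all genes or with back-transformed means, 22 with no minimum, 3 at 5%, 6 at 2-fold and 5 with the cluster mix standardised, and the 4 lower became 1 at 2-fold and 2 with the cluster mix standardised. In pericytes the 13 lower became 7 at 2-fold. In T and NK cells the 5 higher became 9 with no minimum and 2 at 5%, and the 8 lower 5 at 5%. Depth limits Tgfb3 and Acvr1b outside myeloid and epithelial cells, where most values rest on few UMIs.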
